A study of Mus musculus with 76 samples.

Results

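Immune checkpoint genes encode receptors that restrain T cells and the ligands that engage them. Transcripts of 10 such genes were followed in whole mouse tumors: the ligand genes Cd274 (PD-L1), Pdcd1lg2 (PD-L2), Cd276 (B7-H3) and Lgals9 (galectin-9), the receptor genes Pdcd1 (PD-1), Ctla4, Lag3, Havcr2 (TIM-3) and Tigit, and Vsir (VISTA). They were chosen by symbol, and all 10 were found among the 55536 gene IDs of the count table. PD-L1 and PD-L2 bind PD-1 on activated T cells and dampen signaling through the T cell receptor. PD-L1 can be made by tumor cells and by myeloid cells and is well known to rise with interferon-γ, whereas PD-L2 is best known from dendritic cells and macrophages.

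The data were read counts from 38 tumors in 7 groups, each tumor sequenced as 2 technical libraries by 3′ digital gene expression, which reads mainly the 3′ end of each transcript. All tumors grew under the skin of the flank of Balb/c mice and all received alum, a mineral adjuvant that stays where it is injected, with or without CAT-ABP, the hydrogen peroxide-degrading enzyme catalase fused to an alum-binding peptide. CT26, a colon carcinoma line (1000000 cells), gave 6 tumors injected with CAT-ABP on alum, and 5 that had only alum. 4T1, a mammary carcinoma line (500000 cells), likewise gave 6 tumors with the enzyme and 5 without. 4T1-CAT cells, which carry doxycycline-inducible catalase and GFP, gave 5 tumors in each treatment at the same cell number. 4T1-control cells, with inducible GFP alone, gave 6 tumors under alum. Doxycycline diet was fed from day 4 with both engineered lines, so line, diet and transgene changed together against parental 4T1. Injection (20 µg CAT-ABP and 100 µg alum, or alum) was on day 6 and harvest on day 8 by the labels, and the study's methods place each step 1 day later. The engineered lines were puromycin-selected, GFP-sorted populations, the host was immunocompetent, and the human catalase transgene was not among the genes measured here, so its expression was not checked.

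Tumor totals ranged from 493044 to 9077549 counts with a median of 4827387. The 2 shallowest tumors were 4T1-control alum replicate 2 and 4T1 CAT-ABP + alum replicate 4, with 837403 counts in the latter. Levels are given as CPM, the counts of a gene scaled to a common library total (counts per 1000000), scaled by the trimmed mean of M values (TMM) over all 38 tumors, and are compared within a gene only. The labelled lines were checked against 7 epithelial markers (Epcam, Krt8, Krt18, Krt19, Krt7, Cdh1, Cldn7). Their summed level was 1564 to 2882 CPM in the 27 4T1 and derived tumors and 40.7 to 85.3 CPM in the 11 CT26 tumors, where Cldn7 had no counts. In bulk tissue, fewer cells of a type and less RNA per cell cannot be told apart.

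Counts set what could be seen. Of the members, 3 were marked as having few counts, with a median under 10 over the 38 tumors: Lag3 had a median of 0 (0 counts in 20 tumors), Tigit of 4 and Pdcd1 of 5. The median was 14 for Ctla4, 17 for Pdcd1lg2, 34.5 for Havcr2, 65.5 for Cd274, 102 for Vsir, 181.5 for Cd276 and 449.5 for Lgals9. Only genes passing the edgeR expression filter entered a fit, so 6 to 8 of the 10 members were tested per comparison.

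Cd274 (ENSMUSG00000016496, chr19:29367455-29388095, plus strand, GRCm38) and Pdcd1lg2 (ENSMUSG00000016498, chr19:29410919-29471161, plus strand) are neighbors, with 22823 bases between them. The stretches of 250 bases before the RefSeq starts of these neighbors, at chr19:29367188-29367437 and chr19:29410669-29410918, and of Lgals9, at chr11:78984925-78985174 on the minus strand (GRCm38.p6), are shown because these are the 3 members that edgeR called higher in CT26 than in 4T1 tumors in both treatments. Capitals mark GAAAC, a core recognized by interferon regulatory factors, and the interferon-stimulated response element, read as GAAA, any 2 bases and GAAA, on either strand.
Cd274: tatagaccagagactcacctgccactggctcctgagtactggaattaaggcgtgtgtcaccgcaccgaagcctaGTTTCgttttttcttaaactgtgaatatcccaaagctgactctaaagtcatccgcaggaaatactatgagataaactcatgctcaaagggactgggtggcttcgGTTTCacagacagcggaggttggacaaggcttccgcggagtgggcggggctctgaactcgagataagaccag
Pdcd1lg2: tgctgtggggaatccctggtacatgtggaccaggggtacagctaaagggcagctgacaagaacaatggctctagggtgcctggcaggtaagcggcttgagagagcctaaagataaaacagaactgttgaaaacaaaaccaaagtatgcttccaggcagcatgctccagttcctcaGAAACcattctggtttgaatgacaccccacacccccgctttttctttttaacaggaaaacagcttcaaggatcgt
Lgals9: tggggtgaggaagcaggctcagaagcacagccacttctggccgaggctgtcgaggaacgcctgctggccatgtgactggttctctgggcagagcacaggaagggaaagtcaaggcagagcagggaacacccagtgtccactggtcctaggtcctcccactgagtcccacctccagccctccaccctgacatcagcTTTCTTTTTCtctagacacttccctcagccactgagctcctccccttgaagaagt
GAAAC occurred in both neighbors, at 176 and 72 bases before the start of Cd274 and at 75 bases before that of Pdcd1lg2. It also occurred in the windows of Pdcd1, Ctla4 and Tigit, and was present in 39.7% of all 32851 RefSeq promoter windows of the same length. The marked match to the interferon-stimulated response element, 55 bases before the start of Lgals9, was the only one among the 9 members with a window, against 2.98% of all windows. ACGTG, the core of the hypoxia response element (16.6% of windows), occurred in those of Ctla4, Havcr2 and Tigit, and TGACNNNGC, the antioxidant response element (10.2%), in that of Tigit. The window of Cd276 was 77.6% G or C against a median of 52.4%.

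The ligand genes differed between the tumor models. Cd274 was 8.33-fold and Pdcd1lg2 7.70-fold higher in CT26 than in 4T1 tumors under alum, Lgals9 was 1.49-fold higher, and Cd276 was 4.83-fold lower. The 5 CT26 alum tumors had Cd274 at 83.4, 133, 62.6, 75.0 and 23.9 CPM. The 5 4T1 alum tumors had 9.90, 6.03, 8.91, 11.1 and 8.10 CPM. The lowest CT26 tumor thus lay above the highest 4T1 tumor, and the log2 fold change was 3.06 (SE 0.35, edgeR quasi-likelihood test with Benjamini-Hochberg adjustment over all genes, adjusted p = 4.62e-06).

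Pdcd1lg2 was at 15.6, 40.4, 11.2, 16.4 and 8.67 CPM in the CT26 alum tumors. It was at 3.07, 2.01, 1.27, 2.75 and 2.35 CPM in the 4T1 alum tumors. Again no tumor overlapped (log2 fold change 2.94, SE 0.42, edgeR adjusted p = 3.94e-05), although the 4T1 values rested on 7 to 23 counts.

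Cd276 (ENSMUSG00000035914, chr9:58524298-58555437, minus strand), a B7-family molecule made by many carcinoma cells, ran the other way. Its CT26 alum levels were 12.3, 11.2, 8.99, 7.91 and 6.26 CPM. Its 4T1 alum levels were 42.3, 41.7, 44.8, 47.5 and 47.8 CPM, a narrow range far above every CT26 tumor (log2 fold change -2.27, SE 0.18, edgeR adjusted p = 7.21e-08). Taking all groups, Cd276 was lower in each of the 11 CT26 tumors (6.26 to 12.3 CPM) than in each of the 27 4T1 and derived tumors (15.3 to 64.9 CPM).

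Lgals9 (ENSMUSG00000001123, chr11:78962974-78984946, minus strand), a ligand of TIM-3, had the smallest of the 4 differences. It stood at 124, 144, 127, 116 and 126 CPM in CT26 alum tumors. It stood at 82.6, 64.9, 99.5, 89.8 and 89.4 CPM in 4T1 alum tumors, with no overlap (log2 fold change 0.58, SE 0.14, edgeR adjusted p = 0.00294). With technical library 2 of each tumor alone the call was lost (log2 fold change 0.29, adjusted p = 0.282).

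**Figure D1:**
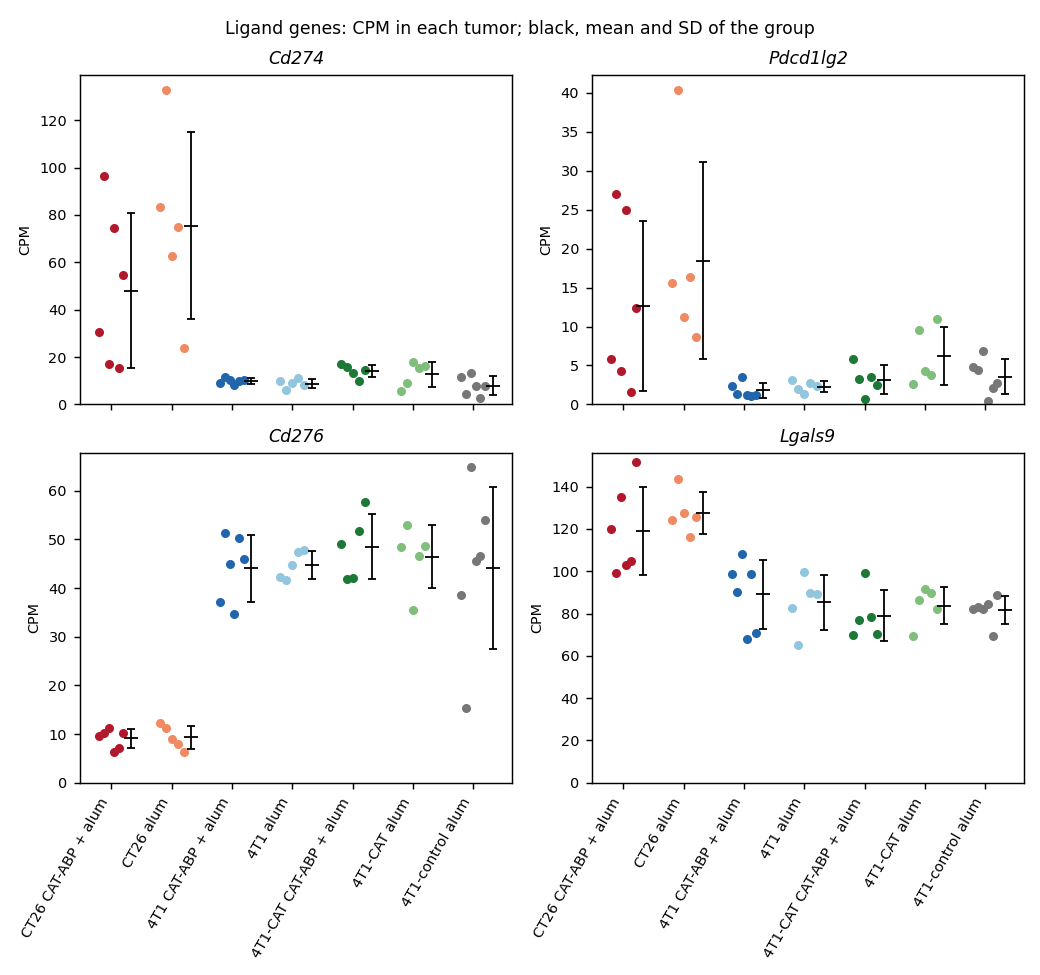
Levels of the 4 ligand genes (y axis, CPM) in each of the 38 tumors by group (x axis), with points for tumors and black bars for the group mean and SD. Cd274 and Pdcd1lg2 are high and spread out in CT26 tumors, Cd276 lies below every 4T1 and derived tumor there, and Lgals9 differs least.

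These 4 members were called among 7 tested, 3 higher and 1 lower in CT26. The background was high: 42.4% of 12817 genes were called in this comparison, 21.3% higher and 21.1% lower in CT26, with a median log2 fold change over all genes of 0.02 against 0.58 over the 7 members tested. In log2 CPM, 5 of the 10 members did not overlap between these groups, Pdcd1 with few counts among them, against 28.6% of 14646 genes. For each of the 5 the two-sided exact permutation p was 0.00794, the smallest that 5 tumors against 5 allow; 70 such tests were made over all comparisons and these p-values are unadjusted. Ctla4, Havcr2 and Vsir had log2 fold changes of 0.26 to 0.82 and edgeR adjusted p of at least 0.109. Ctla4 passed once, without CT26 alum replicate 5 (log2 fold change 1.00, adjusted p = 0.0498).

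Sequencing pools were inferred from the first part of the index tag of each library, as no label names them. Of the 4T1 alum tumors, 2 shared the inferred pools of all CT26 tumors and 3 did not. Against those 2 alone the CT26 alum tumors differed by 3.03 (Cd274), 2.49 (Pdcd1lg2), -2.16 (Cd276) and 0.79 (Lgals9) in mean log2 CPM. With the pool as a term in the edgeR fit all 4 stayed past the threshold, the highest adjusted p being 0.00491 for Pdcd1lg2.

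The comparison was repeated in separate tumors under CAT-ABP + alum, all of which shared the same inferred sequencing pools. Cd274 ranged from 15.2 to 96.2 CPM around a median of 42.7 in 6 CT26 tumors. It ranged from 8.36 to 11.7 CPM around a median of 10.1 in 6 4T1 tumors. All CT26 tumors lay above all 4T1 tumors (4.70-fold, log2 fold change 2.23, SE 0.38, edgeR adjusted p = 0.000127). Pdcd1lg2 ranged from 1.63 to 27.1 CPM (median 9.10) in CT26 and from 1.09 to 3.57 CPM (median 1.27) in 4T1. Here 1 CT26 tumor fell within the 4T1 range (6.92-fold, log2 fold change 2.79, SE 0.59, edgeR adjusted p = 0.000883). Cd276 ranged from 6.35 to 11.2 CPM (median 9.94) in CT26 and from 34.6 to 51.4 CPM (median 45.5) in 4T1. These groups were apart again (4.98-fold lower in CT26, log2 fold change -2.32, SE 0.16, edgeR adjusted p = 1.29e-09).

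Lgals9 ranged from 99.3 to 152 CPM (median 112) in CT26 and from 68.0 to 108 CPM (median 94.4) in 4T1 under CAT-ABP. The groups overlapped and the call was narrow (1.29-fold, log2 fold change 0.37, SE 0.14, edgeR adjusted p = 0.0425). It was lost in 5 of 12 fits that left out 1 tumor: without CT26 CAT-ABP + alum replicate 1, 3 or 6 (adjusted p = 0.0642, 0.0765 and 0.108) or without 4T1 CAT-ABP + alum replicate 4 or 6 (0.0623 and 0.0751). Leaving out the libraries of low depth gave an adjusted p of 0.0517.

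In this comparison too 4 of 7 members tested were called, 3 higher and 1 lower, against 45.5% of 13016 genes (21.8% higher, 23.7% lower). The median log2 fold change was 0.37 over the 7 members and -0.02 over all genes. Only Cd274 and Cd276 did not overlap among the 10 members, against 21.4% of 14646 genes, and their two-sided exact permutation p was 0.00216, the smallest for 6 tumors against 6. The exact p was 0.00866 for Pdcd1lg2 and 0.0173 for Lgals9.

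**Figure D2:**
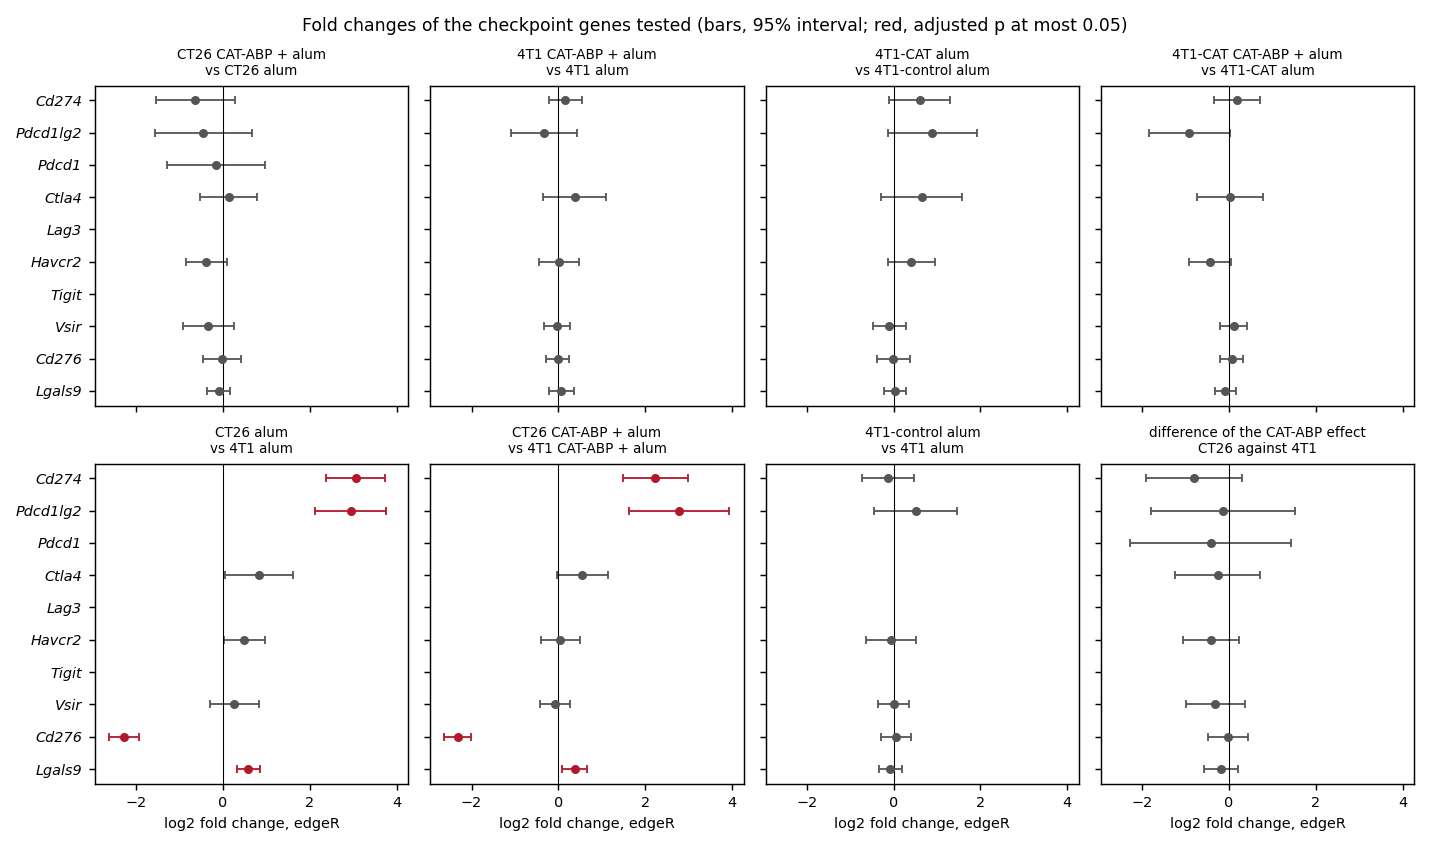
log2 fold change of each checkpoint gene tested by edgeR (x axis) for 7 comparisons and the difference of the CAT-ABP effect between models. Bars show the nominal 95% interval from the SE by a normal approximation, which runs narrow with few tumors. Genes without a point did not pass the expression filter. Cd274, Pdcd1lg2, Cd276 and Lgals9 are past the threshold in both comparisons of CT26 with 4T1, and no gene is in the other panels.

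Markers of other cells also differed between the models. All 11 T cell markers tested of 13 listed were higher in CT26 than in 4T1 tumors, with a median log2 fold change of 2.44 under alum and 1.77 under CAT-ABP. Their summed level was 184 to 360 CPM in CT26 alum and 42.8 to 54.9 CPM in 4T1 alum tumors, and 125 to 317 against 48.5 to 103 CPM under CAT-ABP. Of 9 NK cell markers, 5 of 6 tested were higher in CT26 under alum and 4 of 5 under CAT-ABP, the sums being 695 to 998 CPM in CT26 alum and 22.2 to 32.4 CPM in 4T1 alum tumors; Klra8 had no counts in CT26 alum and Klra4 none in 4T1 alum tumors. Of 10 macrophage and monocyte markers, 5 and 7 were higher and none lower, with sums of 1455 to 1878 against 933 to 1181 CPM under alum. Dendritic cell markers, at 29.9 to 71.5 CPM in CT26 alum and 37.9 to 50.3 CPM in 4T1 alum, overlapped, with 2 of 9 tested higher and 1 lower under alum and 3 of 8 higher and 1 lower under CAT-ABP. Of 5 markers of all leukocytes, 4 were higher in both comparisons. Of 7 fibroblast markers, 1 was higher and 4 were lower in both. Of 6 neutrophil markers tested, 1 was called higher and 1 lower under alum and 2 were called higher and 1 lower under CAT-ABP. Their summed level over 8 listed genes was lower in CT26, at 65.8 to 110 against 159 to 231 CPM under alum. Under CAT-ABP it was 85.6 to 173 CPM in CT26 and 156 to 283 CPM in 4T1 tumors, with overlap. Of 3 regulatory T cell markers tested, 1 was higher and 1 lower under alum and 1 was lower under CAT-ABP. The 1 B and plasma cell marker tested was higher in both. Among the lymphocyte markers, Cd8a, Cd247, Prf1, Klre1 and Cd79b did not pass the filter in the fit of 4T1 tumors with and without CAT-ABP. They entered the model comparison through their CT26 counts, so their direction was fixed by the filter. Endothelial markers gave 1 and 2 lower of 6, and skeletal muscle markers 1 higher of 5 under alum and 1 lower of 6 under CAT-ABP. All 6 epithelial markers tested were lower in CT26 in both comparisons. The part of cell composition in the ligand differences was not tested.

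Other genes of the checkpoint system were read from lists of 21 receptors and 26 ligands, of which 20 and 25 were found in the table. Among receptors 10 of 12 tested were higher in CT26 than in 4T1 tumors under alum and 9 of 11 under CAT-ABP, and none was lower. Klrc1, Cd27 and Cd28 did not pass the filter in the fit of 4T1 tumors with and without CAT-ABP. They entered through their CT26 counts, so their direction was fixed by the filter and these counts are no measure of it. Among ligands 7 were higher and 2 lower of 17 tested under alum, and 8 higher and 2 lower of 19 under CAT-ABP. Under alum the 6 with the smallest p included Nt5e, the CD73 ectoenzyme that makes adenosine, which was 27.8-fold lower in CT26. Also among them, Klrc1, the NKG2A receptor of NK cells and cytotoxic T cells, was 24.3-fold higher, Ceacam1, a ligand of TIM-3, 7.18-fold higher, and Ido1, the tryptophan-degrading enzyme induced by interferon-γ, 5.77-fold higher. The costimulatory receptors Tnfrsf9 (4-1BB) and Tnfrsf4 (OX40) were 4.67-fold and 2.43-fold higher (edgeR adjusted p at most 0.000123 for each of the 6). Under CAT-ABP, Nt5e was again 20.9-fold lower and Ceacam1 4.85-fold higher, Cd48 was 2.04-fold, Tnfrsf9 3.14-fold and the costimulatory receptor Cd27 4.82-fold higher, and Fgl1, a ligand of LAG-3, was 6.21-fold lower.

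Of 20 regulators of Cd274, 19 were tested in each model comparison. Under alum 5 were higher and 4 lower in CT26, and under CAT-ABP 3 were higher and 5 lower, with medians of 0.05 and -0.11 on the log2 scale. Chosen after their values were seen, Irf1, an interferon-induced transcription factor of the Cd274 promoter, was 2.15-fold and 1.72-fold higher and the kinase Jak2 2.39-fold and 2.44-fold lower in CT26.

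Within CT26 the 2 PD-1 ligand genes varied widely and together. Cd274 in the 6 CAT-ABP + alum tumors was at 30.6, 96.2, 17.3, 74.4, 15.2 and 54.8 CPM for replicates 1 to 6. Pdcd1lg2 in the same tumors was at 5.83, 27.1, 4.26, 24.9, 1.63 and 12.4 CPM. The 3 tumors high in one gene were the 3 high in the other, and the highest tumor exceeded the lowest by 6.34-fold for Cd274 and 16.6-fold for Pdcd1lg2. Over the 11 CT26 tumors, with the mean of each treatment group subtracted from log2 CPM, Pearson's r was 0.93 (permutation within groups, p = 0.00051, adjusted p = 0.0126 over 35 relations) and Spearman's rho was 0.95 (p = 0.00012, adjusted p = 0.0042). Without the 2 tumors farthest from the median of Cd274, r was 0.95. The tumors share library and depth effects across genes.

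Both genes also followed the summed T cell markers in CT26 tumors. For Cd274 r was 0.88 (permutation p = 0.00231, adjusted p = 0.0202) and rho was 0.91 (p = 0.00174, adjusted p = 0.0198), and r was 0.78 without the 2 farthest tumors. For Pdcd1lg2 r was 0.92 (permutation p = 0.00072, adjusted p = 0.0126) and rho was 0.93 (p = 0.00068, adjusted p = 0.0119), and r was 0.94 without the 2 farthest. Cd274 with Vsir gave r = 0.83 (permutation p = 0.00115, adjusted p = 0.0134) and rho = 0.85 (p = 0.00226, adjusted p = 0.0198), and r was 0.71 without 2 tumors. With the summed macrophage and monocyte markers r was 0.46 for Cd274 and 0.47 for Pdcd1lg2, with permutation p of 0.201 and 0.208 (rho 0.39 and 0.27, permutation p = 0.267 and 0.467), and r was -0.25 and 0.38 without the 2 farthest tumors. In the 27 4T1 and derived tumors, where the 2 ligand genes had r = 0.27 (permutation p = 0.304, adjusted p = 0.661) and rho = 0.28 (p = 0.216, with r = 0.15 without the 2 farthest tumors), none of the 35 relations passed adjustment, and the low counts of Pdcd1lg2 there limited what could be seen. The smallest p there was that of Pdcd1lg2 with the summed T cell markers (r = 0.51, permutation p = 0.00679, adjusted p = 0.238). Its rho was 0.56 (p = 0.00704, adjusted p = 0.246), and r was 0.70 without the 2 farthest tumors. For Cd274 with these markers r was 0.38 (permutation p = 0.0721, adjusted p = 0.401). A difference in these relations between the models was not tested.

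**Figure D3:**
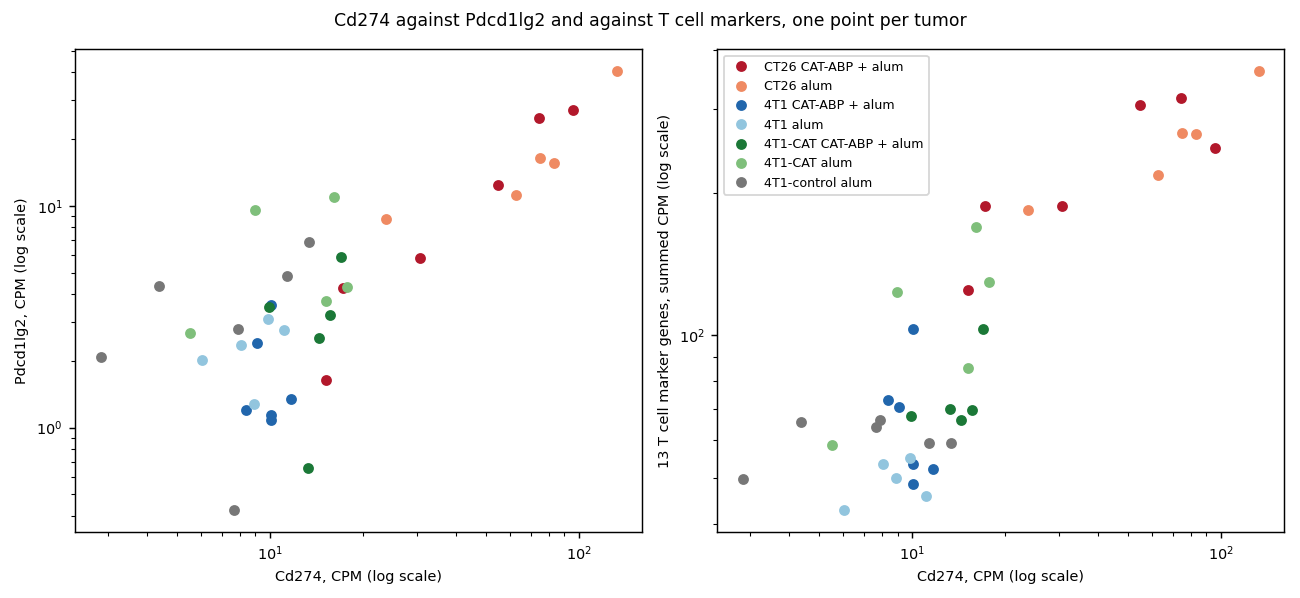
Cd274 (x axis, CPM, log scale) against Pdcd1lg2 (left, CPM, log scale) and against the summed level of 13 T cell markers (right, CPM, log scale), with 1 point per tumor colored by group. The 11 CT26 tumors run along a line in both panels, from 15.2 to 133 CPM of Cd274, while 4T1 and derived tumors reach no more than 17.8 CPM.

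Genes most like each of the 4 members with a median of at least 50 counts were listed by Pearson's r over the 38 tumors after subtraction of group means, among 8596 other genes with a mean count of at least 50, as a description. For Cd274 these were H2-Eb1 (r = 0.85), Ciita (0.83), H2-Ab1 (0.82), Acod1 (0.79) and Gzmb (0.79), of which H2-Eb1 and H2-Ab1 encode MHC class II chains, Ciita their transactivator and Gzmb granzyme B. Within CT26 tumors alone these r were 0.88 to 0.97, and within 4T1 and derived tumors 0.57 to 0.72. For Vsir they were Psap, Thy1, Spon1, Atp6v1b2 and Themis2, with r from 0.77 to 0.80. For Lgals9 they were Akr1a1, Trac, Bcl2a1d, Ly6e and Gm36161, with r from 0.63 to 0.67. For Cd276 they were Snrk, Tent2, Serpinf1, Prrc1 and Tor1a, with r from 0.85 to 0.90, which came to 0.71 to 0.81 without the shallowest tumor.

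No checkpoint gene passed the threshold for extracellular catalase. In CT26, CAT-ABP + alum against alum called 0% of 12830 genes by edgeR (311 genes, 2.42%, at unadjusted p under 0.05; 1 gene by DESeq2), and 0 of 8 members had an unadjusted p under 0.05. Cd274 averaged 48.1 ± 32.8 CPM (SD, n = 6) with CAT-ABP and 75.5 ± 39.3 CPM (SD, n = 5) with alum, and the groups overlapped over most of their range (log2 fold change -0.64, SE 0.46, edgeR adjusted p = 1.00). Havcr2 averaged 7.62 ± 2.44 and 9.81 ± 1.80 CPM (log2 fold change -0.38, SE 0.24), and Vsir 21.5 ± 6.12 and 27.7 ± 14.9 CPM (log2 fold change -0.33, SE 0.30). The other members tested lay between -0.45 and 0.13. The 95% interval for Cd274, from -1.54 to 0.27 on the log2 scale, was wide. With replicate number as a block in the edgeR fit, Cd274 had a log2 fold change of -0.88 (SE 0.23, unadjusted p = 0.00178, adjusted p = 0.340). In the same fit Pdcd1lg2 was also at -0.88 (SE 0.32, unadjusted p = 0.0137, adjusted p = 0.701). Whether same-numbered tumors belong together is not known.

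In 4T1, CAT-ABP + alum against alum called 0% of 13092 genes by edgeR (377 genes, 2.88%, at unadjusted p under 0.05; 0 by DESeq2) and 0 of 7 members had an unadjusted p under 0.05. The 3 members with the smallest p were Ctla4 at 2.93 ± 1.01 and 2.04 ± 1.05 CPM (log2 fold change 0.37, SE 0.37), Pdcd1lg2 at 1.79 ± 1.00 and 2.29 ± 0.70 CPM (-0.34, SE 0.39) and Cd274 at 9.91 ± 1.14 and 8.81 ± 1.92 CPM (0.16, SE 0.19). The other members tested lay between -0.03 and 0.06. The narrow errors bounded Cd276 to between -0.27 and 0.24 on the log2 scale. For the difference of the CAT-ABP effect between CT26 and 4T1, edgeR called 0% of 14160 genes (509 genes, 3.59%, at unadjusted p under 0.05) and 0 of 8 members at either level. The smallest member p was that of Cd274 (difference -0.81 in log2 fold change, SE 0.57, adjusted p = 1.00), followed by Havcr2 (-0.41, SE 0.33) and Lgals9 (-0.18, SE 0.20). With replicate number as a block, the Cd274 difference was -0.99 (SE 0.47, edgeR unadjusted p = 0.0497) and did not pass adjustment.

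Intracellular catalase was read from 4T1-CAT against 4T1-control tumors under alum. edgeR called 0% of 12534 genes (637 genes, 5.08%, at unadjusted p under 0.05; 6 by DESeq2) and 0 of 7 members had an unadjusted p under 0.05. Pdcd1lg2 was at 2.67, 9.53, 4.29, 3.72 and 10.999 CPM in the 4T1-CAT tumors and ranged from 0.43 to 6.86 CPM (median 3.57) in 4T1-control tumors. The groups overlapped (log2 fold change 0.89, SE 0.52). Cd274 was at 5.51, 8.95, 17.8, 15.2 and 16.1 CPM in 4T1-CAT tumors, of which 3 lay above all 4T1-control tumors (2.85 to 13.4 CPM, median 7.78), with a log2 fold change of 0.60 (SE 0.36). Havcr2 averaged 9.10 ± 2.49 and 6.42 ± 2.47 CPM (0.40, SE 0.28; edgeR adjusted p = 1.00 for all 3). Summed T cell markers were 58.6 to 169 CPM in 4T1-CAT alum and 49.7 to 66.3 CPM in 4T1-control alum tumors, 5 of 8 tested having an unadjusted p under 0.05 and none an adjusted one. At the same level were 4 of 5 skeletal muscle (median log2 fold change 1.00), 4 of 7 fibroblast (0.40) and 3 of 5 NK cell markers (0.88). So were 3 of 6 neutrophil (0.66), 2 of 3 regulatory T cell (1.08) and 2 of 9 macrophage and monocyte markers (0.22). The level was also reached by 2 of 5 markers of all leukocytes (0.43). Among 6 epithelial markers (-0.04) only Epcam reached it, and it was lower in 4T1-CAT tumors. Of dendritic cell markers 2 of 8 did (0.45), namely Ccr7 (2.56-fold) and Cd209a (2.40-fold). These 8 ranged from -0.21 (Itgax) to 1.36 (Ccr7) in log2 fold change. Summed dendritic cell markers were 44.5 to 100.2 CPM and 15.3 to 50.4 CPM in these groups. The part of these markers in the values was not tested.

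Adding CAT-ABP to 4T1-CAT tumors called 0% of 13093 genes by edgeR (2000 genes, 15.3%, at unadjusted p under 0.05; 249 by DESeq2) and 0 of 7 members had an unadjusted p under 0.05. Pdcd1lg2 was at 5.89, 3.21, 0.66, 3.51 and 2.53 CPM with CAT-ABP against the 5 alum values above (log2 fold change -0.91, SE 0.47, adjusted p = 0.372). Havcr2 averaged 6.52 ± 1.87 and 9.10 ± 2.49 CPM (-0.44, SE 0.25, adjusted p = 0.404), and Lgals9 79.0 ± 12.0 and 83.7 ± 8.87 CPM (-0.09, SE 0.13, adjusted p = 0.770). DESeq2 gave an adjusted p for Cd276 and Lgals9 only (0.864 and 0.641) and none for the other members tested, among which Pdcd1lg2 had the smallest unadjusted p (0.0464). At unadjusted p under 0.05, with none past adjustment, were 3 of 10 T cell markers (median log2 fold change -0.45), 3 of 7 fibroblast (-0.42), 3 of 6 skeletal muscle (-0.61), 2 of 9 dendritic cell (-0.44) and 2 of 5 NK cell markers (-0.54). The share of all genes at this level was 15.3%, and the part of these markers in the values was not tested. The 4T1-CAT alum tumors are shared with the preceding comparison. Cd274 averaged 14.1 ± 2.69 CPM with CAT-ABP and 12.7 ± 5.23 CPM without.

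Engineered 4T1-control tumors on doxycycline were also set against parental 4T1 tumors under alum. edgeR called 0% of 12431 genes (1307 genes, 10.5%, at unadjusted p under 0.05; 16 by DESeq2) and 0 of 6 members had an unadjusted p under 0.05. Pdcd1lg2 averaged 3.55 ± 2.27 and 2.29 ± 0.70 CPM (log2 fold change 0.50, SE 0.49), Lgals9 81.6 ± 6.54 and 85.2 ± 12.9 CPM (-0.08, SE 0.14) and Cd274 7.93 ± 4.02 and 8.81 ± 1.92 CPM (-0.13, SE 0.31). In these 5 comparisons and the difference between models, no partner gene or regulator passed the threshold either.

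The receptor genes were low in every group. Pdcd1, which encodes PD-1 and marks activated and exhausted T cells, was at 1.70, 4.21, 1.22, 5.67, 0.82 and 5.91 CPM in CT26 CAT-ABP + alum tumors and at 2.37, 8.76, 1.91, 5.56 and 1.205 CPM in CT26 alum tumors. It was at 0.34, 0.86, 0.91, 1.08 and 0.26 CPM in 4T1 alum tumors and had 0 counts in 4 of 6 4T1-control alum tumors. Pdcd1 did not pass the filter in either comparison of CT26 with 4T1 and was not tested there. In log2 CPM the groups did not overlap under alum (difference 1.77, exact permutation p = 0.00794) and overlapped under CAT-ABP (difference 1.103, exact permutation p = 0.0952). edgeR fits without the filter gave log2 fold changes of 2.21 (SE 0.56, adjusted p = 0.00185) and 1.79 (SE 0.53, adjusted p = 0.00885), resting on 19 counts in 5 4T1 alum and 26 counts in 6 4T1 CAT-ABP + alum tumors.

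Ctla4, the receptor that competes with CD28 for B7 ligands, averaged 3.98 ± 1.54 CPM (SD, n = 6) in CT26 CAT-ABP + alum, 3.53 ± 1.25 in CT26 alum, 3.40 ± 2.25 in 4T1-CAT alum, 3.31 ± 0.95 in 4T1-CAT CAT-ABP + alum, 2.93 ± 1.01 in 4T1 CAT-ABP + alum, 2.04 ± 1.05 in 4T1 alum and 1.80 ± 1.33 in 4T1-control alum tumors. Each neighbor in this order lay within the SD of the next. Lag3, a receptor for MHC class II and FGL1, had 21 counts in the 11 CT26 tumors and 11 in the other 27. It had 0 counts in all 6 4T1-control alum tumors, which allows up to 0.156 CPM over that group's total (3 counts; counting error only). Tigit, a receptor for CD155 on T and NK cells, had 32 counts in CT26 and 134 in the 27 4T1 and derived tumors, with group means from 0.55 to 1.31 CPM and every group overlapping every other in range. Neither gene passed the filter in any comparison. In edgeR fits without it their adjusted p was at least 0.176 (Lag3, CT26 against 4T1 under alum, log2 fold change 2.32), and the smallest exact permutation p was 0.0476, for Lag3 in that comparison, unadjusted over the 70 tests.

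Havcr2, found on T cells and also on dendritic cells and macrophages, had group means from 6.42 to 9.81 CPM. Vsir, which is strongest in myeloid cells, had group means from 21.5 to 27.7 CPM and SDs from 2.22 to 14.9 CPM. Its largest spread was in CT26 alum, where the tumors were at 29.1, 51.6, 26.4, 18.7 and 12.5 CPM, and the highest of these was also the highest in Cd274. Neither gene was past the threshold in any comparison.

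**Figure D4:**
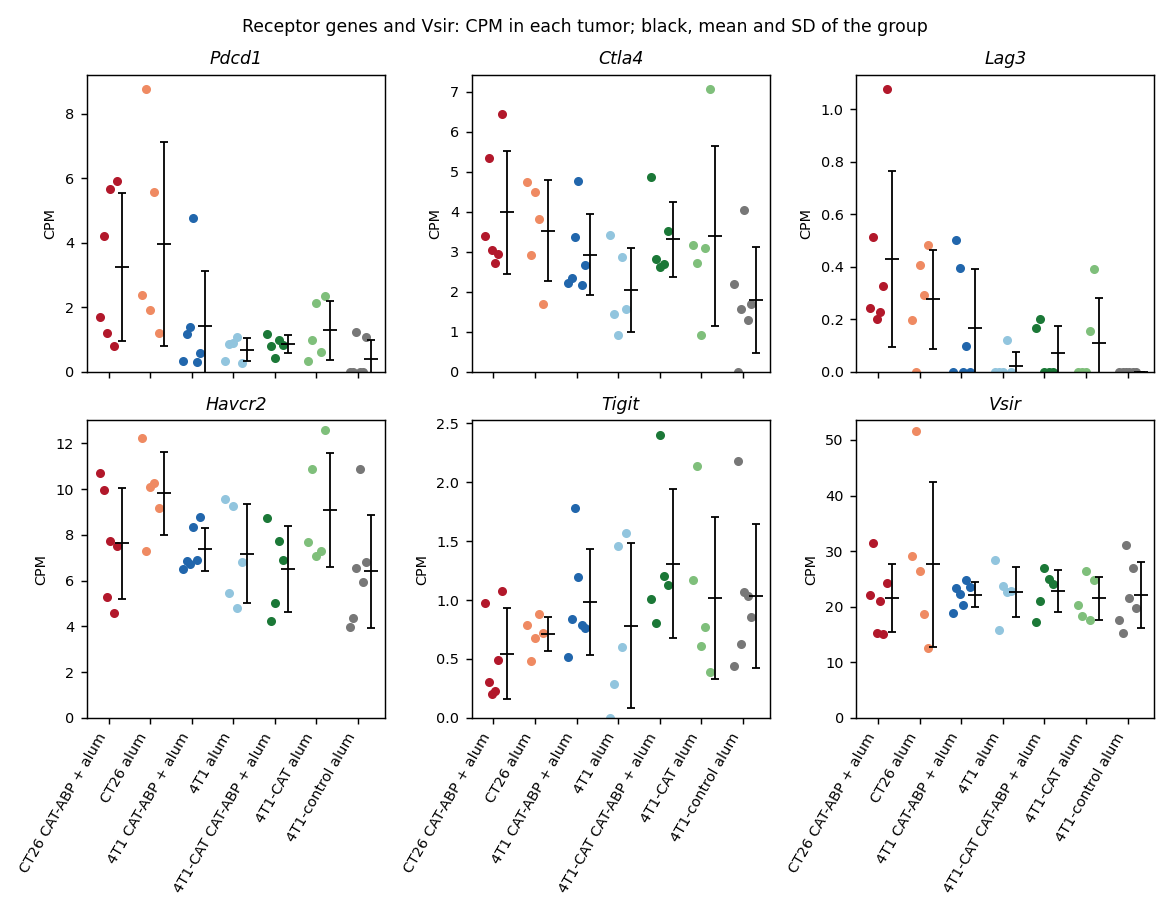
Levels of the 5 receptor genes and Vsir (y axis, CPM) in each of the 38 tumors by group (x axis), with points for tumors and black bars for the group mean and SD, cut at 0. Pdcd1 reaches 8.76 CPM in CT26 alum tumors, Lag3 and Tigit reach no more than 2.41 CPM in all tumors, and Vsir means are similar in all groups.

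Ordered by group mean, Cd274 fell from CT26 alum (75.5 CPM) and CT26 CAT-ABP + alum (48.1) through 4T1-CAT CAT-ABP + alum (14.1), 4T1-CAT alum (12.7), 4T1 CAT-ABP + alum (9.91) and 4T1 alum (8.81) to 4T1-control alum tumors (7.93). The tested neighbors in this order, CT26 with and without CAT-ABP, 4T1-CAT with and without CAT-ABP, 4T1 with and without CAT-ABP, and 4T1 with 4T1-control, did not differ beyond their spread. Cd276 means were 9.13 and 9.32 CPM in the CT26 groups and 44.1 to 48.5 CPM in the other 5. Lgals9 means were 119 and 127 CPM in CT26 and 79.0 to 89.1 CPM in the other 5. The 2 technical libraries of a tumor, compared in the 32 tumors where both exceeded the depth limit, differed by a median of 0.24 (Lgals9) to 0.48 (Pdcd1lg2) in log2 (CPM + 1) for the 4 ligand genes.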

How the data were processed

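Gene expression was measured by 3′ digital gene expression in 38 tumors, each sequenced as 2 technical libraries (76 libraries). The deposited table holds estimated counts for 55536 mouse gene IDs, which the authors made with a Smart-seq2 pipeline; they are not normalized, and 39.7% of the values above 0 are not whole. The aligner, the counter and the genome build are not given in the sources used here. All IDs were found in GENCODE M21 (GRCm38), from which positions were taken, while symbols came from the deposited gene annotation. Library totals ranged from 46233 to 6958626 (median 2075009), and 7 libraries lay under 0.25 of the median. Both libraries of each tumor were added together and the sums rounded to whole numbers, so the tumor was the replicate. Low totals widen the error of genes with few counts. The floor of 3 counts covers counting error only, while the intervals of fold changes also carry the spread between tumors.

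Groups followed the labels. Each comparison was fitted on its own groups with edgeR 4.0.16 in R 4.3.3 (filterByExpr, TMM, quasi-likelihood test), with Benjamini-Hochberg adjustment over all genes tested and a threshold of 0.05; the difference of the CAT-ABP effect was an interaction term over 4 groups. Intervals of fold changes are nominal 95% from the SE by a normal approximation and run narrow with few tumors. In CT26 against 4T1 under alum, those of Ctla4 and Havcr2 lay wholly above no change. Their unadjusted edgeR p was 0.0562 and 0.0617. The methods of the study name DESeq2, used here (1.42.0) as an alternative. Log2 CPM was computed for all genes with a prior count of 2, whether or not they passed the filter. Its TMM factors came from the 14646 genes passing the filter in 38 tumors. Exact permutation tests were two-sided. Correlations were tested with 100000 permutations within groups. Alternatives were RLE size factors, no filter, 1 model over 7 groups, a replicate block, each technical library alone, low-depth libraries left out, the sequencing pool as a term, each tumor left out, plain totals and a prior count of 0.5. The edgeR script was tested on simulated data.

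All 10 members are named with their levels; fold changes are given for members past the threshold, otherwise for the 3 with the smallest p, and of partner genes at most 6 per comparison. The members, lists and motifs were chosen with earlier results of these data known. No protein sequences were used here.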

Additional observations from a re-analysis of the deposited data

Results flagged for a closer look

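Among 7 members in 7 groups, 49 sets of tumors were examined for a single tumor standing apart by Dixon's criterion, which chance meets in about 1 of 20 sets, and 2 met it. Cd276 was at 15.3 CPM in 4T1-control alum replicate 2, the shallowest tumor, where it rested on 7 counts of 493044, while the other 5 tumors lay between 38.6 and 64.9 CPM. Lgals9 was at 69.4 CPM in 4T1-control alum replicate 5 (268 counts of 4169823), while the other 5 tumors lay between 82.0 and 88.8 CPM.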

How the results depend on the processing

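Of 524 recomputed log2 fold changes of the 26 named ones, 511 kept their direction and side of the threshold, 9 fell short of it and 4 changed sign. Cd274, Pdcd1lg2 and Cd276 stayed past the threshold in both comparisons of CT26 with 4T1 under each alternative that tested them; Pdcd1lg2 was not tested with technical library 2 alone under CAT-ABP, where 2 members were called. Lgals9 fell short with that library alone under alum (0.29, edgeR adjusted p = 0.282) and under CAT-ABP (0.28, adjusted p = 0.241), and under CAT-ABP also without a filter (0.36, adjusted p = 0.0935). Genes called with technical library 2 alone came to 2849 under alum and 3559 under CAT-ABP, where fewer genes were tested. DESeq2 called 1 gene for CAT-ABP in CT26, 6 for 4T1-CAT against 4T1-control, 249 for CAT-ABP in 4T1-CAT and 16 for 4T1-control against 4T1. Without a filter edgeR called 1, 16, 131, 47 and 130 genes for CAT-ABP in CT26, CAT-ABP in 4T1, 4T1-CAT against 4T1-control, CAT-ABP in 4T1-CAT and 4T1-control against 4T1, and 2 for the difference between models. For 4T1-control against 4T1 the model over 7 groups called 10 and the fit without low-depth libraries 14. Leaving out 1 tumor gave 0 to 1 genes for 4T1-CAT against 4T1-control, 0 to 1 for CAT-ABP in 4T1-CAT and 0 to 6 for 4T1-control against 4T1. Cd274 changed sign in 4T1-control against 4T1 with technical library 1 alone (0.33), without 4T1 alum replicate 4 (0.0021) and without 4T1-control alum replicate 5 (0.0832; over all single tumors left out, -0.35 to 0.0832), and Lgals9 in the difference between models with technical library 2 alone (0.0212). The causes were not tested. Tumors were not paired by replicate number in the main fits. Of 36 same-numbered pairs, 9 correlated over 0.1, and in 0 of 7 comparisons did every pair. The correlations ran from -0.29 to 0.33, and such a check cannot exclude pairing. The replicate block called 3 genes for CAT-ABP in 4T1-CAT. A pool term could not be fitted for CAT-ABP in CT26, CAT-ABP in 4T1-CAT, 4T1-CAT against 4T1-control or CT26 against 4T1 under CAT-ABP. Plain totals moved 1 of 70 mean CPM values and the smaller prior count 12 of 70 mean log2 CPM values by over 1 SD. Depth limited Pdcd1, Lag3 and Tigit most.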
